A study of Phaseolus vulgaris with 24 samples.

Results

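The Lhcb1 genes of common bean (Phaseolus vulgaris) were followed in all 24 RNA-seq libraries of an experiment on salt stress. They were the 7 genes that the study's supplement annotates as Lhcb1, of 27213 genes in the deposited count tables, and all 7 were present there. The plants were of 2 genotypes, Ispir, described by the study as salt-tolerant, and TR43477, described as salt-susceptible. Leaf and root were sampled from control plants and from plants given NaCl, so that the 8 groups were the leaf and the root of each genotype (IL and TL, IR and TR) with and without salt, each with 3 biological replicates. All plants grew in hydroponics. The treated ones received 50 mM NaCl on the first day, 100 mM on the second and 125 mM from the third, and were held at 125 mM for 3 days before sampling. Each genotype is a single variety, so that a difference between genotypes is a difference between these 2 varieties. Per the study's methods, Ispir seedlings were moved to hydroponics at a slightly later age than TR43477 seedlings. Variety and plant age therefore cannot be told apart.

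Lhcb1 is a nuclear-encoded protein that binds chlorophyll a and b. With its relatives Lhcb2 and Lhcb3 it forms the trimers of LHCII, the major antenna that gathers light for photosystem II in the thylakoid membrane. The minor antenna proteins Lhcb4, Lhcb5 and Lhcb6 connect LHCII with the core of photosystem II, and the Lhca proteins serve photosystem I. Plants usually carry several Lhcb1 genes, and their transcripts are typically among the most abundant nuclear messages of green tissue.

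On the P. vulgaris v2.1 assembly the members lay on 2 chromosomes. Phvul.002G196400 stood alone at chr2:36094319-36095316 on the minus strand. Phvul.002G154500 (chr2:30882375-30883587, minus strand) and Phvul.002G154700 (chr2:30906653-30907912, plus strand) formed a pair pointing away from each other, 23.07 kb apart, with 1 gene between them. The other 4 members lay within 1.04 Mb of chromosome 4, in the order Phvul.004G093200 (chr4:22281504-22282498, minus), Phvul.004G093000 (chr4:22455341-22456858, minus), Phvul.004G091600 (chr4:23117065-23118256, plus) and Phvul.004G092600 (chr4:23319846-23321146, plus). A further 10 genes lay between the first and the last of them. The coordinates are those of the whole genes as deposited, which spanned 995 to 1518 bases. Exons, introns and UTRs were not analysed here.

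Libraries held 12163655 to 26416766 counts. A limit of 3 counts corresponded to 0.0975 to 0.298 CPM (counts scaled to TMM-adjusted library size), and it covers counting error only. No pair of replicates agreed within sampling noise, so each library was counted once. The tissue labels were checked on 36 photosynthesis genes outside the light-harvesting family, whose summed level was 7537 to 51038 CPM in the leaf libraries and 92.9 to 240.6 CPM in the root libraries. No list of root markers was annotated in the sources. Related Lhcb1 genes can have near-identical sequence, and how reads that fit several genes were counted is not given in the sources used here. The division of reads among the copies is therefore uncertain.

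Nearly all counts of the 7 genes fell on Phvul.002G196400. It held 86.6% to 99.9% of their summed counts in the 12 leaf libraries. An Lhcb1 gene that the study did not list would not be counted here. The 7 genes together took 0.0994% to 1.48% of all leaf counts, with the lowest shares in the 3 salt-treated TL libraries. In control IL, CPM of Phvul.002G196400 was 5136, 10991 and 17151 in replicates 1, 2 and 3. In salt-treated IL it was 5627, 6415 and 11336. These ranges overlapped, and the spread among control plants of Ispir (11092 ± 6008 CPM, SD, n = 3) exceeded the gap between the group means. In control TL it was 12140, 16474 and 14210 CPM. In salt-treated TL it was 1033, 1570 and 1255 CPM. Every salt-treated TL library was thus below every other leaf library, with a mean of 1286 ± 270 CPM (SD, n = 3) against 14275 ± 2168 in control TL.

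**Figure D1:**
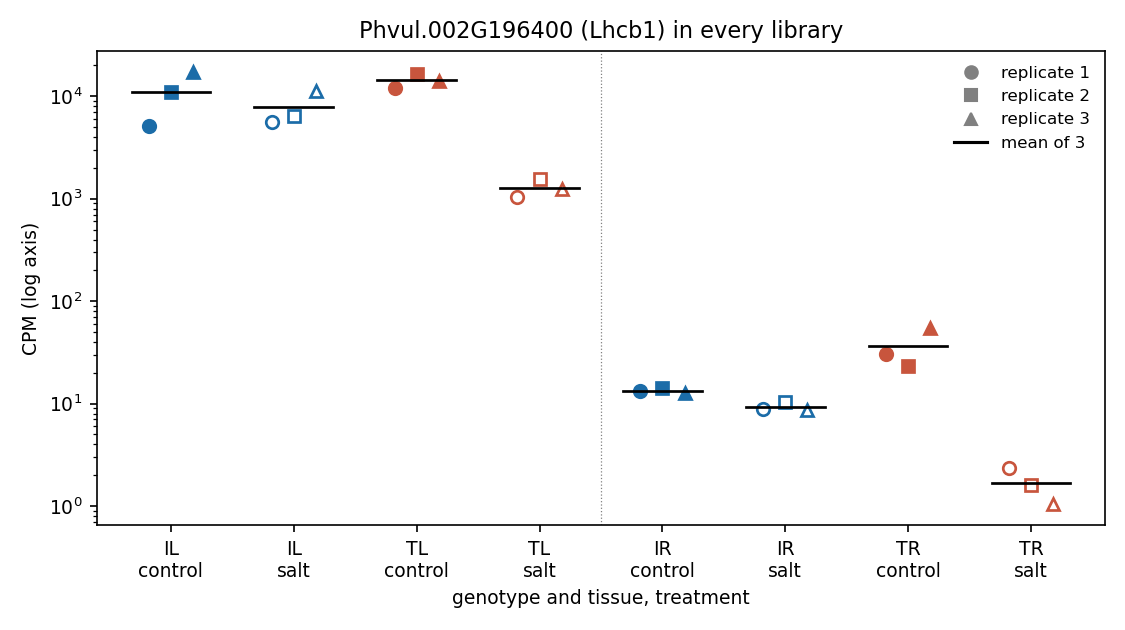
CPM of Phvul.002G196400 (log axis) in each of the 24 libraries, by genotype and tissue (IL, TL, IR, TR) and treatment. Filled symbols are control and open symbols salt-treated plants, the symbol shape gives the replicate number and the line the mean of 3. The 3 salt-treated TL libraries (1033 to 1570 CPM) sit below all other leaf libraries, and the 3 salt-treated TR libraries (1.05 to 2.36 CPM) below all other root libraries.

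Compared per kb of gene span, the order of the members differed between the genotypes below Phvul.002G196400. In control TL, Phvul.002G196400 was at 14303 ± 2172 CPM per kb, followed by Phvul.004G092600 at 383 ± 397 and Phvul.004G093000 at 268 ± 293 (SD, n = 3). Phvul.004G093200 followed at 50.4 ± 65.7 CPM per kb, Phvul.002G154700 at 12.9 ± 15.9, Phvul.002G154500 at 7.78 ± 9.19 and Phvul.004G091600 was lowest at 4.77 ± 4.35. This order held within each of the 3 control TL libraries, except that Phvul.002G154500 and Phvul.004G091600 changed places in replicate 1 (1.53 and 1.56 CPM per kb). In control IL, Phvul.002G196400 was at 11115 ± 6020 CPM per kb, and the 4 chromosome 4 genes followed at 11.8 to 17.9. Phvul.004G092600 was the highest of these 4 in each control IL library, while the order of the others varied between libraries. The chromosome 2 pair was lowest in control IL, Phvul.002G154700 at 1.18 ± 1.86 and Phvul.002G154500 at 0.61 ± 0.93 CPM per kb.

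The 6 less abundant members varied widely between plants of 1 group. Phvul.004G092600 had 2.62, 9.37 and 57.9 CPM in control IL and 14.0, 15.3 and 43.0 in salt-treated IL. It had 104, 307 and 1083 CPM in control TL and 4.26, 7.26 and 4.46 in salt-treated TL. Replicate 3 was the highest in both control groups, and control and salt overlapped in IL but not in TL. Phvul.004G093000 followed the same library order, with 1.23, 6.49 and 45.9 CPM in control IL, 10.1, 11.5 and 34.2 in salt-treated IL, 75.2, 232 and 913 in control TL and 2.62, 4.15 and 2.81 in salt-treated TL. Replicate 3 was also the highest library of both control groups for the other 4 of these genes. In salt-treated IL, too, replicate 3 was the highest library for all 6 genes. In these groups replicate 3 also had the highest summed level of the 16 other light-harvesting genes. That sum was 44082 CPM against 9837 and 20645 in control IL and 61065 against 28522 and 39397 in control TL. In salt-treated IL it was 48060 CPM against 24209 and 33240. Whether those plants differed in another way was not tested.

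**Figure D2:**
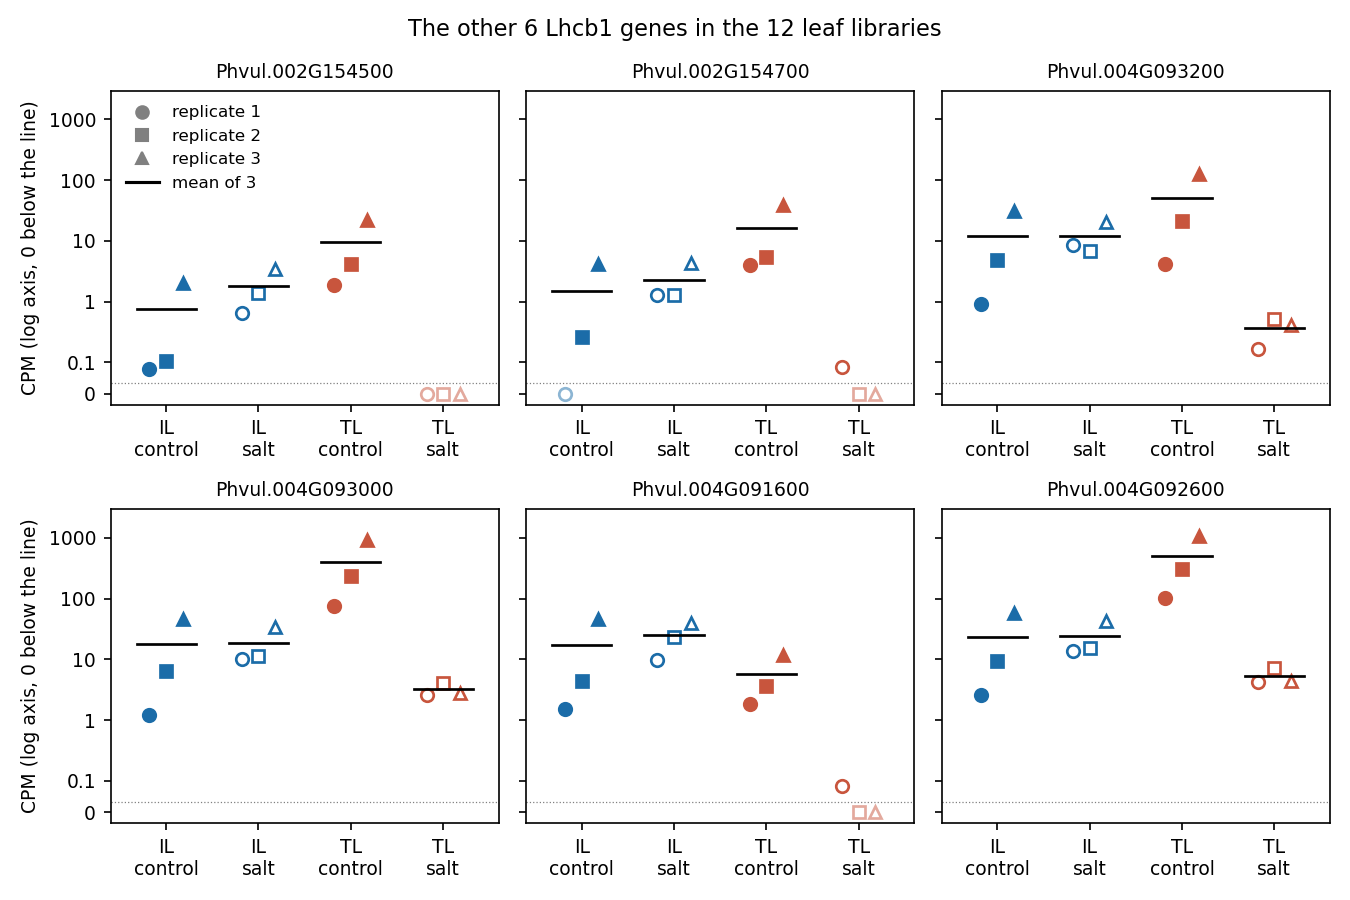
CPM (log axis) of the 6 less abundant Lhcb1 genes in the 12 leaf libraries, with libraries at 0 drawn below the dotted line. Symbols are as for Phvul.002G196400, and the line is the mean of 3. In salt-treated TL the chromosome 2 pair and Phvul.004G091600 are at 0 or 1 count in every library, and all 6 genes sit below control TL.

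The remaining 4 genes were at low counts. Phvul.004G093200 had 12, 92 and 555 counts in control IL, 93, 109 and 205 in salt-treated IL, 44, 218 and 1500 in control TL and 2, 8 and 6 in salt-treated TL. Phvul.004G091600 had 20, 83 and 827 counts in control IL, 108, 377 and 407 in salt-treated IL, 20, 37 and 139 in control TL and 1, 0 and 0 in salt-treated TL. It was the only member whose mean CPM was higher in control IL (17.1 ± 24.6) than in control TL (5.68 ± 5.18, SD, n = 3), although these groups overlapped. Phvul.002G154500 had 1, 2 and 37 counts in control IL, 7, 22 and 34 in salt-treated IL, 20, 43 and 267 in control TL and 0 in all 3 salt-treated TL libraries. Phvul.002G154700 had 0, 5 and 76 counts in control IL, 14, 20 and 43 in salt-treated IL, 43, 56 and 474 in control TL and 1, 0 and 0 in salt-treated TL. Both genes of the pair overlapped between control and salt in IL and were separated in TL.

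The 2 genotypes differed in which of the 6 less abundant genes the counts fell on. In every Ispir leaf library Phvul.004G091600 took 17.1% to 39.5% of the 6 genes' summed counts, and in every TR43477 leaf library 0% to 1.14%. Phvul.004G092600 and Phvul.004G093000 together made up most of the sum in TR43477, the first with 49.3% to 60.9% and the second with 34.8% to 41.6%. In Ispir their shares were 25.5% to 41.0% and 19.2% to 25.6%. The ranges of the genotypes did not overlap for any of these 3 genes. The ratio of Phvul.004G092600 to Phvul.004G091600 counts was 0.64 to 2.16 over the 6 Ispir leaf libraries. It was 52.0 to 93.5 over the 4 TR43477 leaf libraries in which Phvul.004G091600 had a count. The ratio of Phvul.004G092600 to Phvul.004G093000 was 1.19 to 2.13 over all 12 leaf libraries. Both genotypes were aligned to 1 reference genome, so a difference in transcript amount and a difference in how well the reads of a variety fit each copy cannot be told apart.

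**Figure D3:**
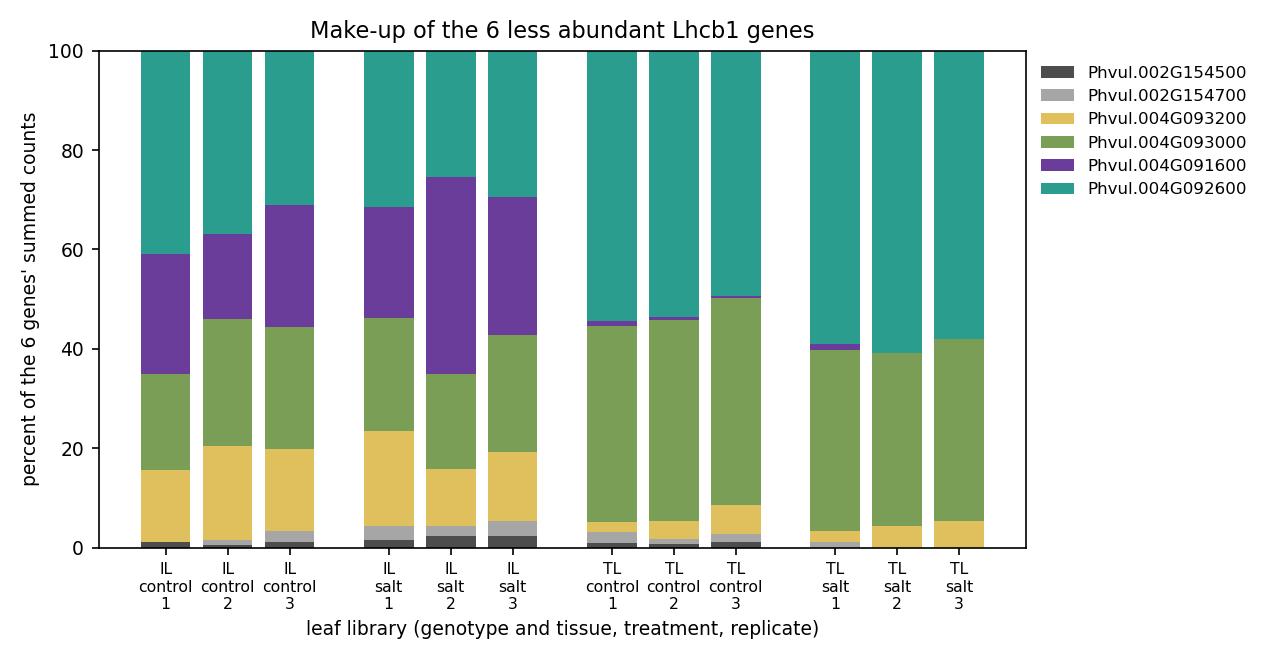
Share of each of the 6 less abundant Lhcb1 genes in their summed counts (percent, not corrected for gene span) in the 12 leaf libraries, in the order of genotype, treatment and replicate. Phvul.004G091600 makes up 17.1% to 39.5% in IL and at most 1.14% in TL.

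Taken over all leaf groups, deviations of the 6 less abundant genes from their group means went together. Over the 12 leaf libraries, deviations of log2(CPM + 1) from the group means had Pearson's r of 0.83 to 0.999 in the 15 pairs of these genes. The highest was for Phvul.004G092600 with Phvul.004G093000. Phvul.002G196400 followed them less closely, with r of 0.51 to 0.80 in 6 pairs. These values describe libraries that share their depth and tissue sample, and reads shared between similar copies would raise them. Replicate 3 was the highest library for all 6 genes in control IL, salt-treated IL and control TL. The r values thus rest largely on the contrast of these libraries with the others of their groups. Salt-treated TL added little for Phvul.002G154500, Phvul.002G154700 and Phvul.004G091600, with at most 1 count per library. Correlations without these replicate 3 libraries were not computed.

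The first comparison was salt with control within each genotype in leaf. A gene was called when its absolute log2 fold change was above 1 and its adjusted p under 0.01, with edgeR's quasi-likelihood test and Benjamini-Hochberg adjustment over all genes tested. In IL none of the 7 Lhcb1 genes was called, while 4.81% of 22315 genes tested were called. None of the 7 had an unadjusted p under 0.05, where 34.2% of genes did, and DESeq2 called none of them and 16.5% of the genes to which it gave an adjusted p. For Phvul.002G196400 the log2 fold change was -0.51 with a standard error (SE, derived from the F statistic) of 0.53 and a 95% interval of -1.75 to 0.73 (adjusted p = 0.53, edgeR's quasi-likelihood test). The intervals of the other 6 all spanned 0 and reached from -2.46 to 3.94. The median over the 7 was 0.06, beside -0.09 over all genes tested. At this spread between plants, differences within these intervals were not detectable.

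In TL all 7 members were lower with salt, with no overlap between the groups, as were 19.9% of the 22672 genes tested (42.3% were separated in either direction). Of the 7, 3 were called lower, where 2.46% of all genes were called lower and 5.09% in either direction. The study drew up its list from genes that it called in its leaf comparisons, so the count is not independent evidence of the direction. Phvul.002G196400 fell 11.1-fold in mean CPM, by 3.47 on the log2 scale (SE 0.38, adjusted p = 0.0034, edgeR's quasi-likelihood test). Phvul.004G092600 fell 93.5-fold, by 6.54 (SE 0.99, adjusted p = 0.0086, the same edgeR test), and Phvul.004G093000 fell 127-fold, by 6.98 (SE 1.06, adjusted p = 0.0086, the same edgeR test). In bulk leaf, fewer green cells and less Lhcb1 RNA per cell cannot be told apart. The 4 members that missed the adjusted p threshold had adjusted p of 0.011 to 0.034 with edgeR. DESeq2 called all 7, where it called 18.4% of genes, and 1 edgeR fit over the 12 leaf libraries called 5, where it called 10.4%.

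For the lowest genes the size of the change is bounded by the counts. Phvul.002G154500 was at 0 in all 3 salt-treated TL libraries, and its mean CPM in control TL was at least 43.8-fold higher than a floor of 3 counts per library. For Phvul.002G154700 the ratio of pooled rates, control over salt, was 733 with an exact 95% interval of 131 to 28990, from 573 counts against 1. For Phvul.004G091600 it was 251 (44.5 to 9949), from 196 counts against 1. These intervals cover counting error only. Phvul.004G093200 was 137-fold lower in mean CPM, from 1762 counts against 16.

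The calls in TL depended on single libraries, while the direction did not. Without 1 of the 3 salt-treated libraries no member was called, whichever was left out, and without control replicate 2 only 1 was. Without control replicate 1 the count was 5, and without control replicate 3, the library with the highest values, it was 6. Over these fits the log2 fold change of Phvul.002G196400 stayed between -3.63 and -3.33, and its adjusted p by edgeR's quasi-likelihood test lay between 0.0013 and 0.039.

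**Figure D4:**
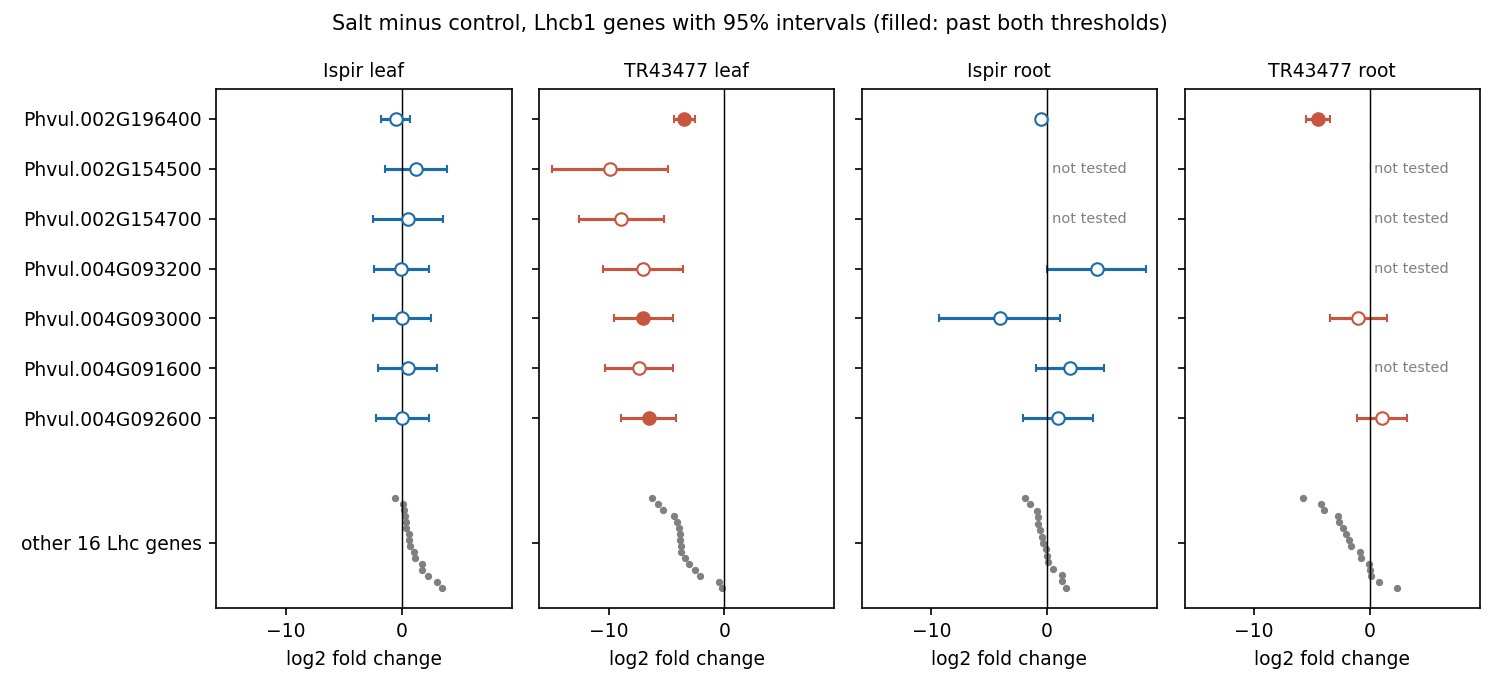
Log2 fold change, salt minus control, of the 7 Lhcb1 genes in IL, TL, IR and TR with 95% intervals, filled where both thresholds were passed, and of the other 16 light-harvesting genes (grey, in order of value). Genes without a count in a comparison are marked as not tested, and fitted values of genes at 0 in 1 group depend on the prior count. In TL all 7 lie below 0, and in TR Phvul.002G196400 does so with an interval of -5.54 to -3.46.

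The other genes of the antenna and the photosynthesis genes outside it were taken from the same supplement as Lhcb1. Their calls in leaf are therefore not independent evidence of the direction either. In TL, 14 of the 16 other light-harvesting genes were called lower, where 2.46% of all genes were. Their median log2 fold change was -3.80, beside -7.03 for the 7 Lhcb1 genes and -0.09 for all genes tested. With Phvul.002G154500 set at its bound, the median of the 7 was -6.98. This median mainly reflects the 6 less abundant genes, whereas Phvul.002G196400, with most of the counts, fell by 3.47. The summed level of the 7 was 12330 to 17048 CPM in control TL and 1040 to 1582 CPM with salt. That of the 16 others was 28522 to 61065 CPM in control TL and 3629 to 4156 CPM with salt. Lhcb2 (Phvul.008G285100), Lhcb1's partner in the trimer, had 3651, 5216 and 10634 CPM in control TL and 139, 115 and 101 with salt, and fell by 5.77 on the log2 scale (SE 0.56, adjusted p = 0.0026, edgeR's quasi-likelihood test). The 2 Lhcb3 genes fell by 6.28 (Phvul.005G085800, SE 0.76) and 3.40 (Phvul.011G155700, SE 0.52), and both were called. The first was the lowest of the 16, and the highest was an Lhca2 gene, Phvul.009G225500, with -0.22. Of the 36 photosynthesis genes outside the antenna, 19 were called lower, with a median of -2.06, among them all 10 photosystem I genes, 6 of 14 photosystem II genes, 2 of 7 electron transport genes and 0 of 3 Rubisco genes (2 of the 3 had an unadjusted p under 0.05, as did 34.9% of all genes).

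In IL the other antenna genes gave 1 call, the Lhca2 gene Phvul.009G225500, which rose by 3.05 on the log2 scale (SE 0.50, adjusted p = 0.0093, edgeR's quasi-likelihood test). Their median was 0.69. Lhcb2 was at 0.20 (SE 0.66) and the Lhcb3 genes at 1.76 (SE 1.06) and 0.12 (SE 0.52), none of them called. The extremes were an Lhcb4 gene, Phvul.001G242100, at 3.47 and Lhca1, Phvul.004G071500, at -0.55. Of the 36 photosynthesis genes outside the antenna 5 were called higher in IL, where 4.81% of all genes were called in either direction. The median of the 36 was 0.75.

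The chromosome 4 members had neighbours with a like profile. Of the 10 other genes between the first and last member, 2 had no count in any library and 8 were tested in leaf. In TL, 6 of these 8 were lower with no overlap, with log2 fold changes of -9.78 to -7.20, and 4 of them were called. The other 2 were at -0.23 and 0.10. Of all genes tested in TL, 19.9% were lower with no overlap and 2.46% were called lower. The 6 genes spanned 751 to 1097 bases each, and they were nearly silent in root, at 0 to 14 counts per gene over all 12 root libraries against 6 to 37 for the 4 members. In IL none of the 8 was called with edgeR, where 4.81% of genes were. Of the 8, 1 had an unadjusted p under 0.05, as did 34.2% of genes, and the log2 fold changes of the 8 were -0.15 to 2.12. The files do not pair these identifiers with names, and the sources used here do not annotate them.

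**Figure D5:**
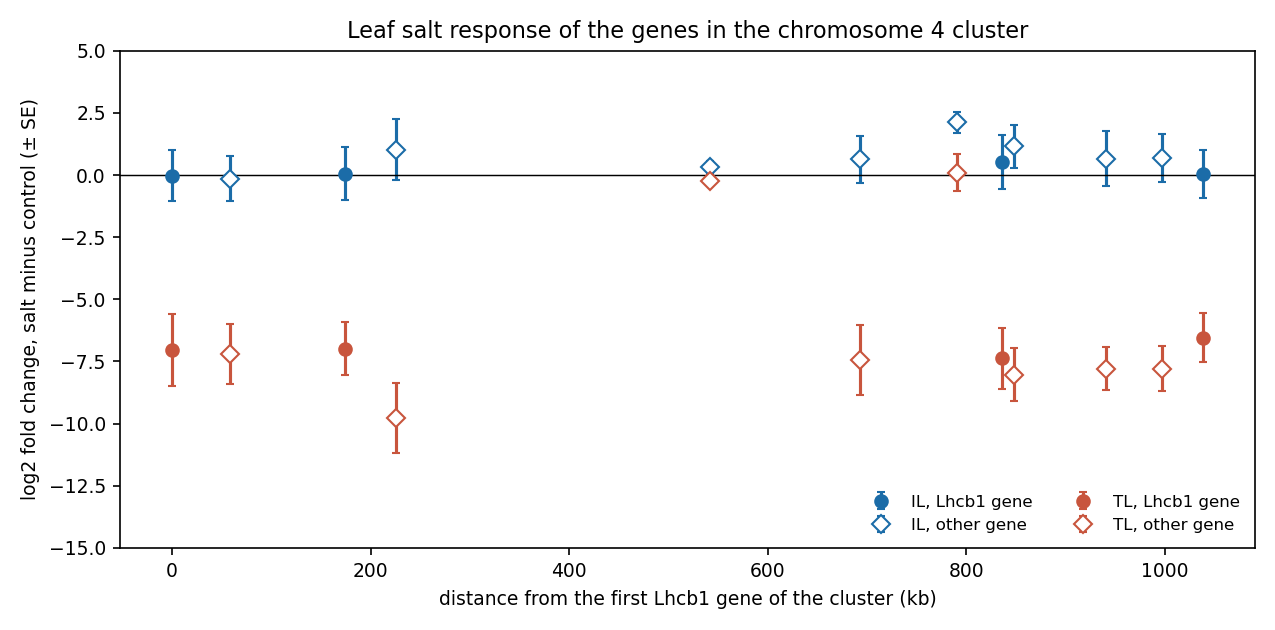
Log2 fold change, salt minus control, with its SE, of the genes with counts in the chromosome 4 cluster, by distance in kb from the first Lhcb1 gene. Circles are the 4 Lhcb1 genes and diamonds the 8 other genes tested, in IL (blue) and TL (red). In TL the 4 Lhcb1 genes and 6 of the 8 others lie between -9.78 and -6.54, while in IL all 12 lie between -0.15 and 2.12.

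The genes most like the mean Lhcb1 profile in leaf came from the same place. Among 15398 genes with a mean of at least 50 counts, the 3 with the highest Pearson's r of log2(CPM + 1) with the mean of the 7 members over the 12 leaf libraries all lay between the chromosome 4 members. The first was Phvul.004G091988 (r = 0.98), with 64, 183 and 481 counts in control TL and 1, 2 and 0 with salt. The second was Phvul.004G093194 (r = 0.98), with 641, 1460 and 10085 counts in control TL and 7, 7 and 2 with salt. Among the 100 genes most alike, 9 were in the study's list of photosynthesis genes. These r values span groups that differ in salt and genotype and are a description. The mean gives each member equal weight, so it followed mainly the less abundant members, most of which lie in the chromosome 4 cluster. Phvul.002G196400, with most of the counts, had little weight in it. Whether reads were shared between these neighbours and the members was not tested.

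The salt responses of the 2 genotypes were compared directly as the interaction of genotype and salt over the 12 leaf libraries. All 7 members had a positive interaction, that is a higher log2 fold change with salt in IL than in TL. In IL none of the 7 was called, while in TL all 7 were lower with salt. The interaction was 2.96 (SE 0.68) for Phvul.002G196400 and 6.57 to 11.2 for the other 6. The 11.2 was that of Phvul.002G154500, at 0 in salt-treated TL, so its size depends on the prior count. Phvul.002G154700 and Phvul.004G091600 rested on 1 count each in salt-treated TL. None of the 7 passed the adjusted p threshold of 0.01 with edgeR's quasi-likelihood test (adjusted p 0.015 to 0.031), where 5.14% of 23306 genes were called, 3.10% with a positive value. All 7 had an unadjusted p under 0.05, as did 32.3% of genes, and DESeq2 called all 7 and 16.3% of genes. Without control IL replicate 3, 6 were called, and without control TL replicate 1, 1 was. In the same test 11 of the 16 other light-harvesting genes were called, with a median of 4.56, Lhcb2 at 5.96 (SE 0.94) and the Lhcb3 gene Phvul.005G085800 at 8.02 (SE 1.51) among them, whereas the Lhcb3 gene Phvul.011G155700, at 3.52 (SE 0.79), was not. This comparison contains all the libraries of both leaf salt comparisons, and the study's list was drawn up from genes that it called in leaf. The counts of Lhcb1 and other antenna genes here are therefore not independent evidence of the direction.

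Between the genotypes without salt, no Lhcb1 gene was called in leaf, where 0.535% of 22793 genes were. Unadjusted p was under 0.05 for 3 of the 7 and for 24.0% of genes, and DESeq2 called 2 of the 7 and 10.5% of genes. Phvul.002G196400 differed by -0.33 (Ispir minus TR43477, log2 scale, SE 0.67, 95% interval -1.91 to 1.26). Phvul.004G092600 and Phvul.004G093000 were lower in Ispir with no overlap, as were 13.2% of all genes tested, by 4.37 (SE 1.37) and 4.46 (SE 1.49), with adjusted p of 0.12 and 0.14 by edgeR's quasi-likelihood test. Lhcb2 was at -0.26 (SE 0.81), and the Lhcb3 genes at -2.62 (SE 1.24) and -2.87 (SE 0.66), neither of them called.

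Under salt, all 7 Lhcb1 genes were called higher in IL than in TL, with no overlap, where 28.9% of genes tested were higher with no overlap, 11.4% of 22513 genes were called higher and 22.9% in either direction. Phvul.002G196400 was 6.06-fold higher in mean CPM, by 2.60 on the log2 scale (SE 0.33, adjusted p = 5.0e-04, edgeR's quasi-likelihood test). Phvul.004G092600 was 4.53-fold, Phvul.004G093000 5.83-fold and Phvul.004G093200 32.7-fold higher in Ispir. Phvul.002G154500 was at least 8.38-fold higher than the floor, and Phvul.004G091600 stood at 892 counts against 1 and Phvul.002G154700 at 77 against 1. Without 1 of the salt-treated TL libraries the calls fell to 4 (replicate 1), 3 (replicate 2) and 4 (replicate 3), and 1 fit over the 12 leaf libraries called 2 of the 7, where it called 11.9% of genes. Of the 16 other antenna genes 15 were called higher, with a median of 3.57 beside 4.95 for Lhcb1 (3.07 with Phvul.002G154500 at its bound). Lhcb2 led them at 5.67 (SE 0.37) with Phvul.005G085800 at 5.37 (SE 0.48), and the exception was the Lhcb3 gene Phvul.011G155700, at 0.63 (SE 0.39). The comparison uses the same salt-treated libraries as the comparisons with control, and the study's list was chosen on them.

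In root, Lhcb1 RNA was close to the detection limit except for Phvul.002G196400. Its root level was 0.119% to 0.253% of the leaf level in the same genotype and treatment. Phvul.002G154500 and Phvul.002G154700 had no count in any of the 12 root libraries. The highest count in a root library was 2 for Phvul.004G091600, 10 for Phvul.004G092600, 9 for Phvul.004G093000 and 5 for Phvul.004G093200. The root comparisons had no part in the choice of the study's list.

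Phvul.002G196400 fell in TR with salt. In control TR it had 457, 421 and 880 counts, or 30.6, 23.3 and 54.5 CPM. In salt-treated TR it had 41, 49 and 28 counts, or 2.36, 1.59 and 1.05 CPM. The groups did not overlap, as for 10.7% of genes tested in this direction, and the mean fell 21.6-fold, by 4.50 on the log2 scale (SE 0.44, 95% interval -5.54 to -3.46, adjusted p = 0.0067, edgeR's quasi-likelihood test). It was the only call among the 3 members with a count in this comparison, where 0.456% of 23696 genes were called and 0.266% were called lower. Without 1 of the 3 salt-treated libraries, or without control replicate 1, it missed the threshold. Over the 6 such fits the log2 fold change was -4.79 to -4.06 and the adjusted p by edgeR's quasi-likelihood test 0.0012 to 0.047.

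The other antenna genes in TR gave 1 call, the Lhcb3 gene Phvul.011G155700. It had 61, 48 and 83 counts in control TR and 1, 2 and 2 with salt, and fell by 5.80 on the log2 scale (SE 0.45, adjusted p = 0.0037, edgeR's quasi-likelihood test). The other Lhcb3 gene, Phvul.005G085800, had 11, 17 and 60 counts in control and 1, 7 and 1 with salt, a difference of -3.94 (SE 0.92) that was not called. Lhcb2 had 223, 231 and 2435 counts in control and 89, 550 and 170 with salt, a difference of -2.65 (SE 1.05) with overlapping groups. Over the 16 genes the median was -1.74 and 6 were lower with no overlap, as were 10.7% of all genes tested. The Lhca2 gene Phvul.009G225500 was highest at 2.38.

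In TR the summed level of the 16 other antenna genes fell with Phvul.002G196400, whereas that of the other photosynthesis genes overlapped between control and salt. The antenna sum was 121 to 422 CPM in control TR and 34.0 to 59.8 CPM with salt, without overlap. A large part of it was the Lhcb4 gene Phvul.010G002100, at 63.8 to 132 CPM in control TR and 9.63 to 14.8 CPM with salt. The 36 photosynthesis genes outside the antenna summed to 92.9 to 241 CPM in control TR and 101 to 120 CPM with salt, with overlap. Their median log2 fold change was -0.39, and none of them was called with edgeR's quasi-likelihood test (5 had an unadjusted p under 0.05, as did 17.1% of genes). Control TR replicate 3 was the highest library for both sums and for Phvul.002G196400. In salt-treated TR the sum of the other photosynthesis genes thus stayed within the control range, while Phvul.002G196400 fell below its control range. Of the 36 genes 3 were lower with no overlap, as were 10.7% of all genes tested. Without control replicate 3 the log2 fold change of Phvul.002G196400 was -4.06 (adjusted p = 0.0012, edgeR's quasi-likelihood test).

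In IR Phvul.002G196400 had 13.3, 14.2 and 12.7 CPM in control and 8.79, 10.3 and 8.73 with salt. All salt-treated libraries were below all controls, as for 16.6% of genes tested, and the mean was 1.45 times lower. The log2 fold change of -0.55 (SE 0.16, adjusted p = 0.059, edgeR's quasi-likelihood test) was not called, nor was that of the other 4 members with a count, where 4.06% of 23461 genes were called. DESeq2 called none of them and 8.60% of genes, and 2 of these 5 had an unadjusted p under 0.05, as did 27.7% of genes. The sum of the 16 other antenna genes was 163 to 177 CPM in control IR and 87.9 to 101 CPM with salt, and 1 of them was called, the Lhcb4 gene Phvul.010G002100, lower by 1.51 (adjusted p = 8.2e-04, edgeR's quasi-likelihood test). Phvul.010G002100 was at 107 to 122 CPM in control IR and 40.1 to 41.9 CPM with salt. Its fall was about as large as that of the whole sum, so the other antenna genes together showed next to no net fall. Lhcb2 was at -0.38 (SE 0.18) and the Lhcb3 genes at -0.82 (SE 0.40) and -1.87 (SE 0.82). The 36 other photosynthesis genes gave 5 calls, all higher, and their sum was higher with salt, 194 to 227 CPM against 121 to 144.

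The interaction in root gave Phvul.002G196400 a log2 value of 3.94 (SE 0.46, 95% interval 2.93 to 4.96, adjusted p = 0.020, edgeR's quasi-likelihood test), the fall being larger in TR. It missed the threshold, as did all 24210 genes tested (0% called), of which 2975 (12.3%) had an unadjusted p under 0.05. It was the only 1 of the 5 members tested with such a p, and DESeq2 called it and 1.14% of genes. It also passed without control TR replicate 2 or without control TR replicate 3. Lhcb2 was at 2.27 (SE 1.13) and the Lhcb3 genes at 3.10 (SE 1.01) and 3.91 (SE 1.09).

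Without salt, Phvul.002G196400 was lower in IR than in TR, with no overlap (as for 16.6% of genes tested), by 1.42 on the log2 scale (SE 0.32, adjusted p = 0.041, edgeR's quasi-likelihood test). None of the 4 members with a count was called, where 2.07% of 23626 genes were. Of these 4, 1 had an unadjusted p under 0.05, as did 25.7% of genes, and DESeq2 called 1, where it called 6.99% of genes. Under salt the order was turned, with Phvul.002G196400 5.55-fold higher in IR in mean CPM, by 2.51 on the log2 scale (SE 0.30, adjusted p = 0.0014, edgeR's quasi-likelihood test). It was the 1 call among 5 members, where 3.43% of 23898 genes were called higher and 5.99% in either direction, and it held without each library in turn. In control root, Lhcb2 was at -1.60 (SE 0.93) and the Lhcb3 genes at -1.02 (SE 0.66) and -1.69 (SE 0.44). Under salt they were at 0.65 (SE 0.43), 2.07 (SE 0.70) and 2.21 (SE 1.06), none of them called. These comparisons share their libraries with those of salt and control.

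In root, the 3 genes most like the members among 20374 with a mean of at least 10 counts lay on chromosomes 2, 5 and 8, with r of 0.91. With 2 members at 0 and the other 4 at no more than 10 counts in a root library, the mean of the members followed mainly Phvul.002G196400. The first was Phvul.002G195500 at chr2:35966578-35968188, 126 kb from Phvul.002G196400. It had 13.0 to 14.1 CPM in salt-treated TR and 21.1 to 22.8 in control TR. Among the 100 most alike, 4 were in the study's list of photosynthesis genes.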

How the data were processed

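Count values were deposited by the authors as raw counts per gene for each library. Per the labels and the study's methods, poly(A) RNA was made into stranded libraries, reads were trimmed with Trimmomatic, aligned with HISAT2 to the P. vulgaris 2.1 genome and counted in SeqMonk 1.44.0. How strand, multiply mapped reads and overlapping genes were treated is not given in the sources used here. The deposited p-value and log2 fold change columns hold the authors' own edgeR comparisons and were not used.

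The 4 tables were joined over 27213 genes. CPM used TMM over all 24 libraries. Tests used R 4.3.3, edgeR 4.0.16 (glmQLFit, glmQLFTest), limma 3.58.1 and DESeq2 1.42.0 (an alternative), on every gene with a count in any of the 6 libraries compared (12 for an interaction), two-sided, adjusted over all genes tested, with thresholds of 1 for the absolute log2 fold change and 0.01 for the adjusted p, as in the study. SEs are the log2 fold change over the root of F. The script was tested on simulated data. An exact permutation test of 3 against 3 libraries cannot go below 0.1 and was not used. All 7 members, Lhcb2 and Lhcb3, the extremes of each list and the 3 genes most alike were to be named, of which unannotated ones are named in part. Phvul.010G002100, Phvul.009G225500 in IL and the neighbours on chromosome 4 were described after their values were seen. The members and lists were chosen with earlier results of these data known. No identifier matched the reference gene table (0 of 27213), so no sequence is shown. Alternatives were upper-quartile normalization, DESeq2, filterByExpr, an adjusted p of 0.05, the replicate number as a block, 1 fit per tissue and leaving out each library.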

Additional observations from a re-analysis of the deposited data

How the results depend on the processing

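Taken over all groups, the replicate numbers did not pair the libraries. Of 36 pairs of same-numbered libraries 7 had deviations correlated above 0.1 (range -0.20 to 0.38). In 11 of the pairs the same-numbered libraries correlated best. In leaf, however, replicate 3 of control IL, salt-treated IL and control TL correlated with each other at 0.22 to 0.38, each time best with the same number. With replicate 3 of salt-treated TL they correlated at -0.20 to 0.011. A link among some leaf libraries therefore remains possible. With the replicate block the calls went from 3 to 0 in TL, from 1 to 0 in TR and from 0 to 7 in the leaf interaction, and under salt 5 of 7 were called between the genotypes in leaf. The block changed the count of Lhcb1 calls in no other comparison. DESeq2 called 7 in TL, 7 and 1 in the leaf and root interactions and 2 and 1 between the genotypes in control leaf and root. An adjusted p of 0.05 gave 7 in TL, 7 and 1 in the interactions and 1 in control root. With 12 libraries in 1 fit, 5 were called in TL and 2 between the genotypes under salt in leaf. Leaving out each library gave 0 to 6 calls in TL, 0 to 1 in TR, 0 to 6 and 0 to 1 in the leaf and root interactions and 3 to 7 between the genotypes under salt in leaf. Upper-quartile normalization moved no count of calls, and filterByExpr moved 1, from 7 to 6 between the genotypes under salt in leaf.
The turned directions all concerned values that were not called. They were Phvul.004G092600 in IL with upper-quartile normalization (-0.0033), Phvul.004G093200 in IL with the block (0.80), Phvul.004G092600 in the root interaction with the block (0.045) and between the genotypes in salt-treated root with upper-quartile normalization (0.021), DESeq2 (0.056) and 1 fit (0.018). Leaving out each library gave in IL -0.22 to 3.83 for Phvul.002G154700, -0.013 to 3.02 for Phvul.004G091600, -0.66 to 1.97 for Phvul.004G092600, -0.72 to 2.22 for Phvul.004G093000 and -0.65 to 2.003 for Phvul.004G093200. Phvul.004G091600 ranged from -0.92 to 2.64 between the genotypes in control leaf. In root Phvul.004G092600 ranged from -0.21 to 2.52 in IR, -1.30 to 1.47 in the interaction, -1.41 to 0.69 between the genotypes in control and -1.20 to 0.59 under salt. The cause of these changes was not tested. At 0 to 10 counts per root library, depth limits every root value except that of Phvul.002G196400.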
